A study of Bombyx mori with 3 samples.

Results

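The cells described here were the fibroin-rich barcodes of the silk gland at the first molt of the silkworm, Bombyx mori. They were taken from the 1LM library as barcodes with at most 30% mitochondrial unique molecular identifiers (UMIs) and with UMIs per detected gene no more than 2 SD away from the mean of the library, in which the rows FIBH, FIBH-2, Fib-l and P25 made at least 5% of UMIs. A barcode was left out when LOC101743535 and LOC110385928, markers of the fibroin protein catabolism cells (FPCs), together had 2 or more UMIs. This rule found 557 barcodes among the 7125 kept barcodes of 1LM, 7.82% (95% Clopper-Pearson interval 7.20 to 8.47%), and among 18864 deposited barcodes of the series. They were set against the other 6568 kept barcodes of 1LM, which include 379 barcodes with 2 or more UMIs of these FPC genes.

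Glands came from 3 stages of the Nistari strain, namely the embryo 8 days after egg laying (E8D), day 1 of the first larval instar (1L1D) and the molt that ends this instar (1LM). No stage was treated with an agent or carried an engineered allele. Each stage was 1 library from about 2000 pooled glands, so there were no replicates and no test between samples was possible. The whole gland was dissociated, and cells of its anterior, middle and posterior regions were mixed in each library.

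The silk gland is a paired tubular organ of polyploid cells. Its posterior part makes fibroin, an assembly of a heavy chain, a light chain and the glycoprotein P25, and the middle part stores it and coats it with the glue proteins called sericins. Fibroin is exported through the endoplasmic reticulum and Golgi apparatus, and around a molt the gland pauses silk production and remodels.

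All levels below are CPM, the UMIs of a gene per 1000000 UMIs summed over the barcodes of a group, with the 6 genes of the rule left out of the total unless stated. Intervals in parentheses are 95% intervals (exact Poisson for CPM, exact binomial for log2 ratios) and cover counting error only, since the barcodes of 1 library are not replicates. A gene was called higher or lower where the ratio was at least 2-fold and the interval left out 0 on the log2 scale, among genes with at least 100 UMIs in 1 of the groups. At 1LM this minimum was 73.8 CPM in fibroin-rich barcodes and 8.74 CPM in the others, and 5046 of the 6596 measured genes reached it in the others alone. A gene at a low level was therefore measured more readily where it was lower in fibroin-rich barcodes.

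The 1LM library held 7513 barcodes and 16578633 UMIs. It shared 12 barcode sequences with 1L1D and 10 with E8D, and 1 of the 557 fibroin-rich barcodes was also found in 1L1D. The limit on UMIs per gene removed 381 barcodes of 1LM, and 71 of these otherwise met the rule, so such barcodes with many UMIs per gene are not among the 557.

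The values that chose the barcodes are given as a description. FIBH, the fibroin heavy chain, made 4.15% of all UMIs in fibroin-rich barcodes and 0.991% in the other barcodes. Fib-l, the light chain, made 3.05% in fibroin-rich barcodes and 0.809% in the others, and P25 0.0437% and 0.0142% in the same order. The fibroin share had a median of 6.67% in fibroin-rich barcodes (quartiles 5.77 and 8.05%, highest 15.6%) and of 1.91% in the others.

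The threshold cut a continuous tail. The 3 barcodes just inside it had fibroin shares of 5.000, 5.002 and 5.003%, and the 3 just outside, among those that met the limit on the FPC genes, had 4.994, 4.993 and 4.989%. There were 102 barcodes in the interval from 5 to 5.5% and 133 in that from 4.5 to 5%. No gap separated the groups, so fibroin-rich names a range of the library and not a separate class.

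**Figure D1:**
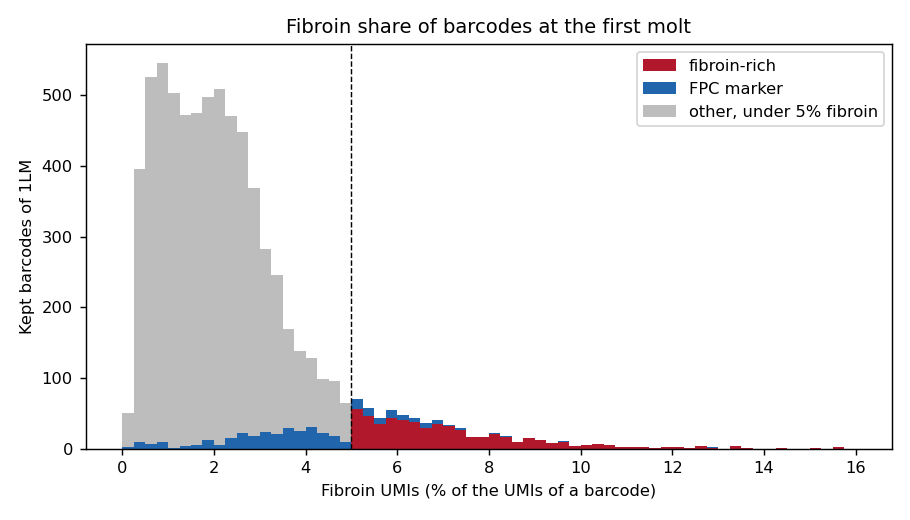
Kept barcodes of 1LM (y axis, number of barcodes, stacked) by the share of UMIs from the 4 fibroin rows (x axis, %, in steps of 0.25). Fibroin-rich barcodes are red, barcodes with 2 or more FPC marker UMIs blue and other barcodes grey. No gap lies at the dashed line at 5%, with 65 barcodes in the step below it and 71 in the step above.

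Fibroin UMIs were found in all 6568 other barcodes too. The paper reports fibroin genes in all its posterior cell types, and the others include FPC marker barcodes. What part of these UMIs came from free RNA was not tested. As a reference, 688 barcodes were taken with 3 or more UMIs of the 5 markers of the epithelial cell remodeling cells (ECRs). The paper places ECRs in the anterior silk gland. The median depth was 2268 UMIs in fibroin-rich barcodes and 2147 UMIs in ECR marker barcodes, whose median fibroin share was 0.928%. The limit of 5% was 5.39 times that median, while the median of all the others was 1.91%. Fibroin-rich barcodes were deeper than all the others together, which had a median of 1387 UMIs, and their median mitochondrial share was 2.53%, against 4.92%. In 3 ranges of matched depth this gap was smaller, with medians of 3.86, 2.73 and 1.29% in fibroin-rich barcodes and 6.10, 3.20 and 1.84% in the others, from the shallowest to the deepest.

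The 2 chains are genes of the rule, so their proportion is also a description. The ratio of the UMIs of FIBH and FIBH-2 together to those of Fib-l was 1.37 in fibroin-rich barcodes, 1.23 in the others and 1.14 in the ECR marker barcodes. P25 was seen in 318 of the 557 fibroin-rich barcodes, whereas FIBH and Fib-l were seen in all 557.

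Genes of the translation machinery were higher in fibroin-rich barcodes by less than 2-fold. The 76 cytoplasmic ribosomal protein genes took 35.3% of the remaining UMIs of fibroin-rich barcodes and 22.5% of those of the other barcodes. All 75 measured members lay above 0, with a median log2 ratio of 0.63, but none reached 2-fold, against 1.11% of all 6596 measured genes called higher. The most abundant gene outside the rule was RpLP2, a stalk protein of the large ribosomal subunit, with 18702 CPM in fibroin-rich barcodes and 9881 CPM in the others, a log2 ratio of 0.92 (0.90 to 0.94).

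The factors that load and move the ribosome showed the same pattern. Of 21 measured translation factors, 19 lay above 0 and 1 was called, with a median of 0.65. The called gene was Ef-1g, a subunit of the complex that recharges elongation factor 1, with 4325 CPM in fibroin-rich barcodes and 1929 CPM in the others (log2 1.17, 1.12 to 1.21). EF1a, which brings charged tRNA to the ribosome, had 12758 and 7685 CPM in the same order (log2 0.73, 0.71 to 0.75). The median over all 6596 genes was -0.35. Without the ribosomal protein genes in the total, a scaling chosen after the data were seen, log2 ratios were 0.26 higher, the median was -0.09, and 259 genes were called higher and 1398 lower, against 73 higher and 1795 lower with them. The ratios that follow are read against the median of -0.35.

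**Figure D2:**
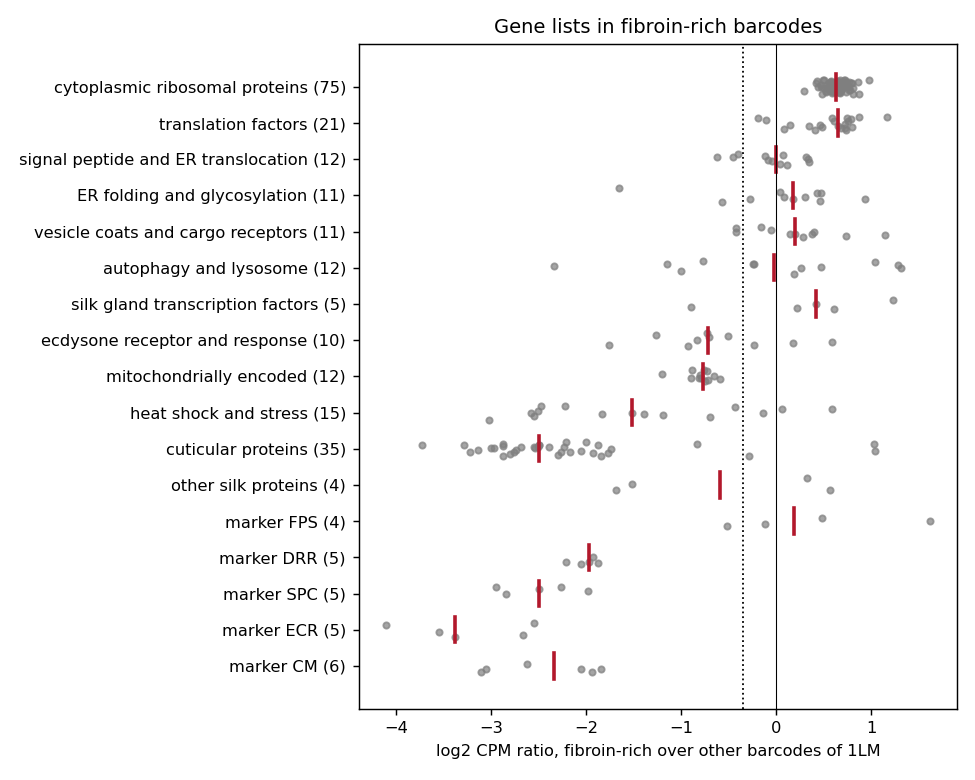
log2 ratio of CPM in fibroin-rich over other barcodes of 1LM (x axis) for the measured genes of the lists (rows, number of measured genes in parentheses). Grey points are genes, red bars medians, and the dotted line the median of all measured genes, -0.35. All ribosomal protein genes and most translation factor genes lie right of 0, and most cuticular and heat shock genes lie left. All markers in the rows DRR (death and remodeling regulation cells), SPC (sericin protein catabolism cells), ECR and CM (chitin metabolism cells) lie left.

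In all, 73 genes were called higher in fibroin-rich barcodes and 1795 (27.2% of those measured) lower. The gene with the highest ratio was LOC101746950, a protein-coding gene without a described function. It had 3113 CPM (3020 to 3209) in fibroin-rich barcodes and 606 CPM (592 to 621) in the others, a log2 ratio of 2.36 (2.31 to 2.42). After all barcodes were thinned to 1000 UMIs, 473 of 538 fibroin-rich barcodes held a UMI of it, 87.9% (84.9 to 90.6%), against 36.7% (35.4 to 38.1%) of 4844 others. Without thinning the shares were 94.4% and 49.3%. Thinning left out 19 fibroin-rich and 1724 other barcodes.

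LOC101746950 also followed the fibroin share below the threshold. Over barcodes that met the limit on the FPC genes it had 178 CPM at fibroin shares under 1%, 433 CPM from 1 to 2%, 749 CPM from 2 to 3%, 1797 CPM from 3 to 5%, 3093 CPM from 5 to 10% and 3338 CPM from 10% up. The highest bin held 47 barcodes. The median UMIs of these bins were 2575, 1281, 995, 1234.5, 2230.5 and 2520 in the same order, so from 2% up depth rose with the level of LOC101746950, and the part of depth was not tested. The barcodes with 2 to 3% fibroin, close to the 2.43% of the library as a whole, were the shallowest, and the part of free RNA in their values was not tested.

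The next genes by ratio were of several kinds. LOC101742153, similar to the facilitated trehalose transporter Tret1, which carries the blood sugar of insects across membranes, had 236 CPM in fibroin-rich barcodes and 75.05 CPM in the others (log2 1.65, 1.46 to 1.84). LOC101746861, a gene without a described function that marks the fibroin protein-synthesizing cells (FPSs), had 165 and 53.6 CPM (log2 1.62, 1.39 to 1.84). Ugt2, a UDP-glycosyltransferase, an enzyme class that joins sugars to small molecules, had 1196 and 441 CPM (log2 1.44, 1.36 to 1.52). Metabolic genes at low levels were also among the 15 highest, namely LOC101747176, a homogentisate 1,2-dioxygenase of tyrosine breakdown (61 UMIs, log2 1.54, 1.10 to 1.97), and Ldh, lactate dehydrogenase (47 UMIs, log2 1.54, 1.02 to 2.02). LOC101740888, LOC110385433, LOC101744206, LOC101736549, LOC692814, LOC101737346, LOC733081, LOC101740184 and LOC692995 completed the 15, with log2 ratios between 1.39 and 2.001.

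**Figure D3:**
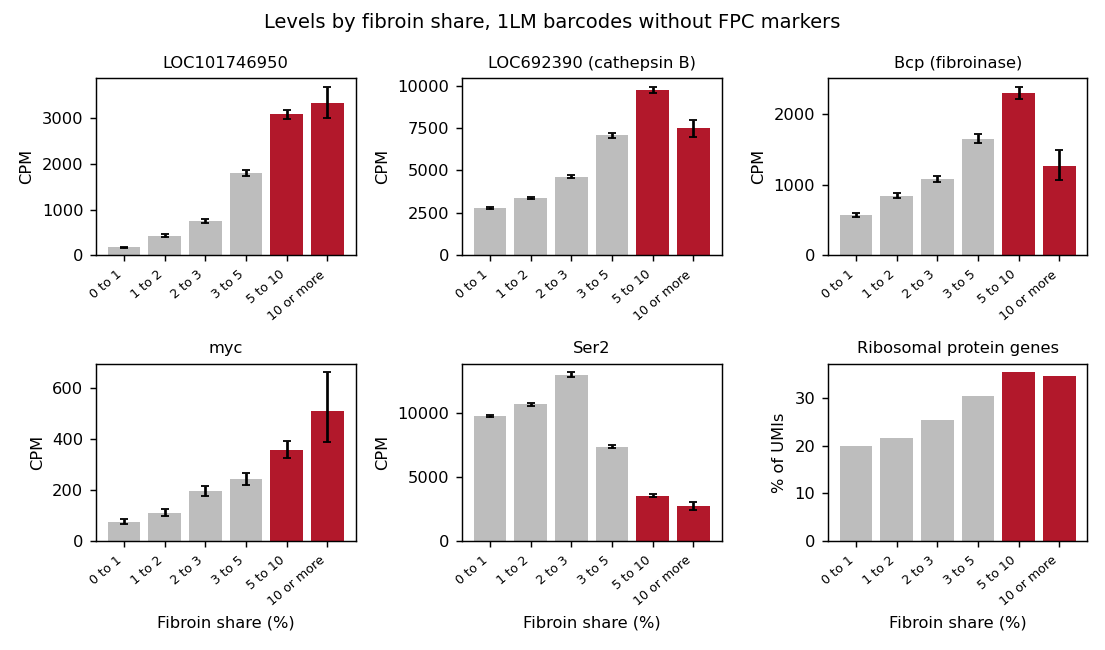
Level of 5 genes (y axis, CPM, bars with 95% Poisson intervals) and of the ribosomal protein genes (y axis, % of UMIs without the 6 genes of the rule) in barcodes of 1LM with fewer than 2 FPC marker UMIs, by fibroin share (x axis, %). Fibroin-rich bins are red. LOC101746950 and myc are higher in each bin than in the one before, cathepsin B and fibroinase peak at 5 to 10%, and Ser2 is lowest in the fibroin-rich bins.

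Proteases of the lysosome stood out in level. LOC692390, cathepsin B, was the sixth most abundant gene of fibroin-rich barcodes outside the rule, with 9559 CPM against 3933 CPM in the others (log2 1.28, 1.25 to 1.31). Bcp, a cathepsin L-like cysteine protease known as fibroinase, had 2216 CPM in fibroin-rich barcodes and 895 CPM in the others (log2 1.31, 1.25 to 1.37). CatD, the aspartic protease cathepsin D, had 232 and 112 CPM (log2 1.04, 0.86 to 1.22). These 3 were the only genes called higher among 12 measured genes of autophagy and the lysosome (25%, against 1.11% of all measured genes).

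The remainder of that list was not called higher. Of the 12 measured genes, 25% were called lower, close to the 27.2% of all measured genes. The minimum of UMIs was reached in the others alone by 6 of the 12, among them those called lower. Atg5 (10 UMIs in fibroin-rich barcodes), LOC100216352 (17 UMIs) and LOC105842251 (13 UMIs) were called lower, with log2 ratios of -1.0003, -1.15 and -2.35. Atg8, which coats the forming autophagosome, had 1785 CPM in fibroin-rich barcodes and 1288 CPM in the others (log2 0.47, 0.41 to 0.53). The median of the list was -0.02, while its summed level was 14304 CPM in fibroin-rich barcodes and 6775 CPM in the others, most of it cathepsin B in both groups. Cathepsin B and fibroinase did not climb to the end of the fibroin range. They had 9749 and 2303 CPM at fibroin shares of 5 to 10% and 7479 and 1271 CPM from 10% up, with counting intervals of 6983 to 8000 CPM and 1072 to 1497 CPM in the highest bin.

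The export route was less uniform than the ribosome. No gene of 12 for signal peptides and translocation into the endoplasmic reticulum was called, and their median was 0.00, which lies above the median of all genes. Sec61alpha, the pore of the translocon, had 283 CPM in fibroin-rich barcodes and 261 CPM in the others (log2 0.11, -0.04 to 0.27). Of 11 measured genes of folding and glycosylation 1 was called, HSP70, which was lower (log2 -1.65, -1.88 to -1.43). Pdi, the protein disulfide isomerase, an enzyme that forms the disulfide bonds of secreted proteins, had 1297 and 678 CPM (log2 0.93, 0.86 to 1.01).

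The median of 11 genes of vesicle coats and cargo receptors was 0.20, and 1 was called higher (9.09%, against 1.11% of all measured genes). This was LOC101740180, annotated as the p24 family cargo receptor Tmed5, which had 1081 CPM in fibroin-rich barcodes and 490 CPM in the others (log2 1.14, 1.06 to 1.22). LOC101737070, annotated as Tmed2 of the same family, had 200.02 and 120.13 CPM (log2 0.74, 0.54 to 0.92).

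Of 5 measured silk gland transcription factors 1 was called higher (20%, against 1.11% of all measured genes) and none lower. Awh, a LIM-homeodomain factor known as an activator of the heavy chain gene, had 39.1 CPM in fibroin-rich barcodes and 16.7 CPM in the others (log2 1.23, 0.76 to 1.67), from 53 and 191 UMIs. This call was lost when barcodes with 1 FPC marker UMI were also left out (log2 0.99). The other 4 were within 2-fold, sage with 693 and 454 CPM (log2 0.61), dimm with 103 and 77.4 CPM (log2 0.42) and SGF1, a forkhead factor, with 526 and 452 CPM (log2 0.22). LOC101737806, the homeobox factor homothorax, lay below 0 with 7.38 and 13.8 CPM (log2 -0.90, -1.99 to 0.01), from 10 and 158 UMIs. Outside the lists and chosen after its values were seen, myc, a regulator of growth and ribosome production in insects, had 371 CPM in fibroin-rich barcodes and 153 CPM in the others (log2 1.27, 1.13 to 1.42).

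Few genes of the molting hormone ecdysone were called. Of 10 measured, none was called higher and 2 (20%, against 27.2% of all measured genes) were called lower. Their median was -0.72, but it was -0.19 when barcodes with FPC marker UMIs were not left out of the fibroin-rich group, where the median of all genes was also -0.19. The 2 were Grf (106 CPM in fibroin-rich barcodes, 255 CPM in the others, log2 -1.26) and LOC101745160 (16.24 and 55.04 CPM, log2 -1.76). E75, an early response gene, had 262 and 175 CPM (log2 0.59, 0.42 to 0.75), the highest ratio of the list. Br-c, the transcription factor Broad-Complex, had 1122 and 1322 CPM (log2 -0.24, -0.31 to -0.16).

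Other silk proteins were split. Ser2, a sericin of the middle silk gland, had 3477 CPM in fibroin-rich barcodes and 9949 CPM in the others (log2 -1.52, -1.56 to -1.47), and LOC101740082, annotated as similar to sericin 1, had 67.2 and 217 CPM (log2 -1.69). The seroins, small silk proteins with antimicrobial activity, were at similar or slightly higher levels, with 7026 and 5604 CPM for LOC692598 (log2 0.33) and 7437 and 5033 CPM for LOC105842464 (log2 0.56).

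Heat shock genes were lower as a group than in all the others together. Of 15 measured, 7 reached the minimum of UMIs in the others alone. Of the 15, 10 were called lower and none higher, against 27.2% of all measured genes called lower, with a median of -1.52. The median was -0.90 where UMI shares were averaged over barcodes and -0.48 with a fibroin limit of 10%. LOC101735832, an inducible Hsp70, had 70.9 CPM in fibroin-rich barcodes and 575 CPM in the others (log2 -3.02, -3.33 to -2.73), and Hsp90 had 2510 and 5742 CPM (log2 -1.19, -1.24 to -1.14). Hsc70-4, the constitutive form, had 4291 and 2856 CPM (log2 0.59). Heat shock genes made 0.832% of UMIs in fibroin-rich barcodes, 1.26% in all others and 3.04% in ECR marker barcodes. By fibroin share, without barcodes of 2 or more FPC marker UMIs, they made 1.75% under 1% and 1.00% from 1 to 2%. From 2 to 3%, 3 to 5%, 5 to 10% and 10% up they made 0.845, 0.842, 0.812 and 1.04%. In the 3 depth ranges, from the shallowest, they made 0.851, 0.892 and 0.791% in fibroin-rich barcodes. The others there had 0.873, 1.17 and 1.80%, so the gap was small in the shallowest range.

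Of 205 cuticular protein genes, a family that builds chitin-bound layers, 35 were measured, and 24 of these reached the minimum of UMIs in the others alone. Of the 35, 31 were called lower and 2 higher, against 27.2% and 1.11% of all measured genes, with a median of -2.50. The median was -1.93 with a minimum of 20 UMIs, -1.72 with a fibroin limit of 3% and -0.92 with one of 10%. The family made 1.02% of UMIs in fibroin-rich barcodes, 2.60% in all others and 0.976% in the FPC marker barcodes among them. CPT3 had 852 CPM in fibroin-rich barcodes and 3958 CPM in the others (log2 -2.21). The 2 called higher were CPR122 (log2 1.03, 174 UMIs in fibroin-rich barcodes) and CPG12 (log2 1.04, 28 UMIs).

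The 15 genes with the lowest ratios were of several kinds and included lncRNAs and genes without a described function. Osi7 and Osi20, of the insect Osiris family, had 5.90 and 9.60 CPM in fibroin-rich barcodes and 117 and 157 CPM in the others (log2 -4.31 and -4.03). LOC101743773, annotated as hemicentin-2, a matrix protein, and an ECR marker, had 5.90 and 102 CPM (log2 -4.11). LOC101736552, annotated as the extracellular protease ADAMTS16, had 5.90 and 92.4 CPM (log2 -3.97). LOC110385476, annotated with an endonuclease-reverse transcriptase, was lowest with 3 UMIs in fibroin-rich barcodes and 936 in the others (log2 -5.21, -7.49 to -3.66). The 12 measured mitochondrially encoded genes all lay below 0, with a median of -0.77 and 1 called lower, with COX1 at 15347 CPM in fibroin-rich barcodes and 24135 CPM in the others.

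Markers of the other cell types of the gland were mostly lower. Every measured marker of the death and remodeling regulation cells (5 of 5), the sericin protein catabolism cells (5 of 5), the ECRs (5 of 5) and the chitin metabolism cells (6 of 6) was called lower. The summed level of these lists was 1811, 22.9, 50.2 and 109 CPM in fibroin-rich barcodes against 7673, 151, 443 and 660 CPM in the others. These markers were chosen in the study on the same libraries and are not independent evidence. The paper places the death and remodeling regulation cells in the posterior gland, reports fibroin genes in them and has them as its largest cluster at 1LM. Their marker CPT3 is also among the cuticular protein genes above, so these lists overlap. Over all measured genes 27.2% were called lower. All 5 markers of the sericin protein catabolism cells, 5 of the ECRs and 6 of the chitin metabolism cells reached the minimum of UMIs in the others alone. Those of the death and remodeling regulation cells reached it in both groups. None of these 21 was at 0 in fibroin-rich barcodes. The 5 markers of the sericin protein-synthesizing cells summed to 197 CPM in fibroin-rich barcodes and 502 CPM in the others, with 2 called lower. The marker lists of endoplasmic reticulum stress signaling, liquid silk fibrosis and traction forces cells each summed to 11.1 CPM or less in fibroin-rich barcodes. The 3 FPC markers outside the rule summed to 98.2 CPM in fibroin-rich barcodes and 232 CPM in the others, with 2 called lower. All 3 reached the minimum of UMIs in the others alone. Of the 4 FPS markers, 1 was called higher, LOC101746861, and LOC101745332 lay below 0 (log2 -0.52, -0.75 to -0.29), so the label of a fibroin-synthesizing cell rests on the fibroin genes and not on the whole list. Markers of muscle, of hemolymph and fat body, and of neurons summed to 147, 137 and 76.8 CPM in fibroin-rich barcodes, against 389, 249 and 103 CPM in the others, and 2 of 5, 4 of 9 and 0 of 3 of them were at 0 in fibroin-rich barcodes. Of 4 aminoacyl-tRNA ligases none was called (median 0.24), and of 5 genes of growth and the cell cycle 1 was called lower (median -0.11).

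Genes per barcode were also fewer. Thinned to 1000 UMIs, fibroin-rich barcodes held a median of 465 genes (quartiles 436 and 498) and the others 532 (quartiles 494 and 590), while without thinning the medians were 829 and 667.

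The fibroin-rich barcodes varied among themselves. Their UMIs ranged from 854 to 7749, and 510 had fibroin shares of 5 to 10% and 47 of 10 to 20%, with none above. Split into 3 equal groups from the shallowest to the deepest, the ribosomal protein share was 30.6, 34.7 and 37.2%, the mitochondrial share 4.47, 3.29 and 1.57% and cathepsin B 8224, 8814 and 10453 CPM. Among the other barcodes of the same depth ranges, the ribosomal protein share was 23.4, 21.9 and 21.7% and cathepsin B 4167, 3872 and 3687 CPM. The ribosomal protein and cathepsin B levels of fibroin-rich barcodes were thus higher in each depth range.

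The balance of heavy and light chain also varied between barcodes. FIBH and FIBH-2 made 57.7% of the heavy and light chain UMIs of the pooled fibroin-rich barcodes, and single barcodes ranged from 12.3 to 91.1%. The exact binomial interval of a barcode lay above the pooled value in 131 and below it in 117 of the 557. A division of the barcodes into 4 equal groups by this share was chosen after the data were seen.

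The group with the highest FIBH share, from 65.3%, differed in other genes. The 3 FPC markers that the rule did not use, LOC105842375, LOC110385571 and LOC101741809, had a summed level of 21.1, 19.8, 48.9 and 368 CPM from the lowest to the highest group, from 8, 7, 17 and 101 UMIs. They were found in 44 of 139 barcodes of the highest group and in 8 of 141 of the lowest. Br-c had 753, 807, 947 and 2258 CPM in the same order. LOC101746950 ran the other way with 3849, 3138, 2954 and 2266 CPM, as did cathepsin B with 11020, 9700, 9814 and 7034 CPM and the ribosomal protein genes with 37.8% in the lowest and 30.3% in the highest group. Signs of RNA quality and depth moved with the highest group. Mitochondrial genes had 20687, 23688, 24531 and 38930 CPM from the lowest to the highest group, and the median depth was 2471, 2359.5, 2372 and 1999 UMIs, and their part in these differences was not tested.

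**Figure D4:**
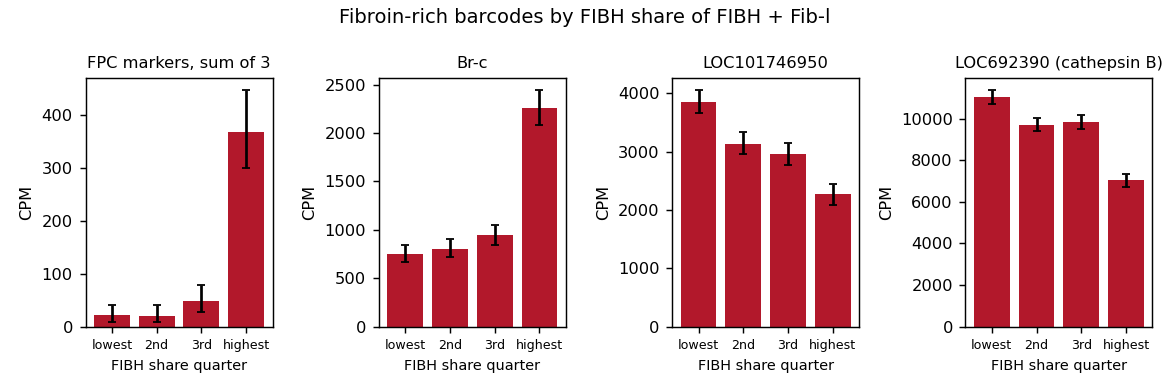
Levels (y axis, CPM, with 95% Poisson intervals) in fibroin-rich barcodes of 1LM, in 4 equal groups by the share of FIBH and FIBH-2 in the UMIs of FIBH, FIBH-2 and Fib-l (x axis, lowest to highest). FPC markers not used by the rule and Br-c are high in the highest group alone, at 368 and 2258 CPM, and LOC101746950 and cathepsin B are lowest there.

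The fibroin-rich barcodes were next set against the 379 kept barcodes of 1LM with 2 or more FPC marker UMIs, which had a median fibroin share of 3.76% and a median of 2143 UMIs. Of these, 85 had 5% or more fibroin. Among 1957 measured genes, 346 were called higher in fibroin-rich barcodes (17.7%) and 690 lower (35.3%). There were 1.37 UMIs of FIBH and FIBH-2 together per Fib-l UMI in fibroin-rich barcodes and 2.42 in FPC marker barcodes. None of 11 measured cuticular protein genes was called between these groups. The 5 markers of the death and remodeling regulation cells summed to 1811 CPM in fibroin-rich and 2555 CPM in FPC marker barcodes, with none called. Low levels of both lists were thus shared with FPC marker barcodes.

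Genes of translation and export were mostly higher in fibroin-rich barcodes. Ribosomal protein genes made 35.3% of UMIs in fibroin-rich barcodes and 16.7% in FPC marker barcodes, and 44 of 75 were called higher and none lower. Called higher were also 11 of 20 translation factors and 6 of 11 genes of translocation. So were 4 of 10 of folding and glycosylation and 3 of 7 of vesicle coats and cargo receptors. None of these lists had a gene called lower. Over all measured genes 17.7% were called higher and 35.3% lower. In the same order, 3, 5, 6 and 5 genes of these lists reached the minimum of UMIs in fibroin-rich barcodes alone. Their measurement thus rested on that group. Pdi had 1297 CPM in fibroin-rich barcodes and 459 CPM in FPC marker barcodes (log2 1.499, 1.34 to 1.66). Srp9, a subunit of the signal recognition particle that carries nascent secreted proteins to the endoplasmic reticulum, had 141 and 37.0 CPM (log2 1.93).

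The ecdysone genes went the opposite way. Of 8 measured, 5 were called lower in fibroin-rich barcodes, EcR, the hormone receptor (135 CPM in fibroin-rich and 388 CPM in FPC marker barcodes, log2 -1.52), Br-c (1122 and 3769 CPM, log2 -1.75), E74 (121 and 433 CPM, log2 -1.84), Ftz-f1 (93.7 and 261 CPM, log2 -1.48) and LOC692364. E74 and Ftz-f1 are transcription factors of the hormone response. Heat shock genes were called lower in 8 of 11. Over all measured genes 35.3% were called lower, with a median log2 ratio of -0.28. Of the 8 ecdysone genes, 1 reached the minimum of UMIs in FPC marker barcodes alone. Of the 11 heat shock genes, 3 reached it in FPC marker barcodes alone and 1 in fibroin-rich barcodes alone. LOC110385036, an uncharacterized gene, had 1988 CPM in fibroin-rich and 23754 CPM in FPC marker barcodes (log2 -3.58, -3.64 to -3.52), and the 3 FPC markers outside the rule had log2 ratios of -3.15, -3.51 and -4.22.

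The list of autophagy and the lysosome was split, with 4 of 9 measured genes called higher in fibroin-rich barcodes and 3 lower. Cathepsin B had 9559 CPM in fibroin-rich and 3665 CPM in FPC marker barcodes (log2 1.38, 1.33 to 1.44) and fibroinase 2216 and 785 CPM (log2 1.498, 1.38 to 1.62), and CatD (log2 1.19) and Atg8 (log2 1.52) were called higher too. The shares called higher and lower were 44.4% and 33.3%, against 17.7% and 35.3% of all measured genes. The 3 called lower act in the forming autophagosome and reached the minimum of UMIs in FPC marker barcodes alone. They were LOC101738071, annotated as Atg2 (log2 -1.55), LOC101740431, annotated as Atg9 (log2 -1.37), and LOC105842251, annotated as Atg16-like (log2 -3.96). Awh was not measured at the minimum of 100 UMIs, with 39.1 and 83.2 CPM, and myc was at 371 and 396 CPM.

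At 1L1D the same rule found 1390 of 4339 kept barcodes, 32.0% (30.6 to 33.4%), with a median fibroin share of 12.2% and a highest share of 57.9%. At E8D it found 1 of 4880, too few for a group. Stage and library cannot be told apart in these shares. The ratio of FIBH and FIBH-2 to Fib-l was 2.23 in the fibroin-rich barcodes of 1L1D.

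Against the other kept barcodes of 1L1D, 209 of 5241 genes were called higher in the fibroin-rich ones (3.99%) and 1096 lower (20.9%). The median log2 ratio of these 5241 genes was -0.26. Ribosomal protein genes made 46.1% of UMIs in fibroin-rich and 22.8% in other barcodes of 1L1D. LOC101746950 had 2564 and 197 CPM (log2 3.70, 3.64 to 3.76), Ugt2 901 and 160 CPM (log2 2.49), LOC101740180 545 and 103 CPM (log2 2.40) and cathepsin B 779 and 308 CPM (log2 1.34). Of the 15 genes highest at 1LM, 11 were measured at 1L1D, and 6 of these were called higher there and 2 lower. Of all 73 called higher at 1LM, 54 were measured at 1L1D. Of these 54, 19 were called higher there and 7 lower, and 19 lay below 0.

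Several genes did not follow. Bcp had 354 CPM in fibroin-rich and 454 CPM in other barcodes of 1L1D (log2 -0.36, -0.44 to -0.28), and CatD had 102.8 and 102.1 CPM (log2 0.01, -0.15 to 0.17), whereas both were called higher at 1LM. Of the 12 translocation genes, 6 were called higher at 1L1D and none at 1LM. Of 10 measured genes of folding and glycosylation at 1L1D, Pdi was called higher and HSP70 and Crt lower. Their median was -0.19, and that of all measured genes of 1L1D was -0.26. Of 11 genes of vesicle coats and cargo receptors 2 were called higher, against 1 of 11 at 1LM. Sec61alpha had 769 and 217 CPM at 1L1D (log2 1.82, 1.75 to 1.90), Pdi 1984 and 471 CPM (log2 2.08, 2.03 to 2.12) and dimm 47.8 and 5.74 CPM (log2 3.06, 2.67 to 3.46). The mitochondrial genes lay above 0 in 12 of 12 at 1L1D, with a median of 0.22, and below 0 in 12 of 12 at 1LM. The totals of these ratios lack the fibroin rows, which made 17.2% of UMIs in fibroin-rich and 1.17% in other barcodes of 1L1D. As a share of all UMIs per barcode, the mitochondrial median at 1L1D was 13.8% in fibroin-rich and 16.4% in other barcodes. It was thus lower in fibroin-rich barcodes, as at 1LM (2.53 and 4.92%). How far the choice of total set the direction at 1L1D was not tested. Differences between the stages in these ratios were not tested, as each stage was 1 library.

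**Figure D5:**
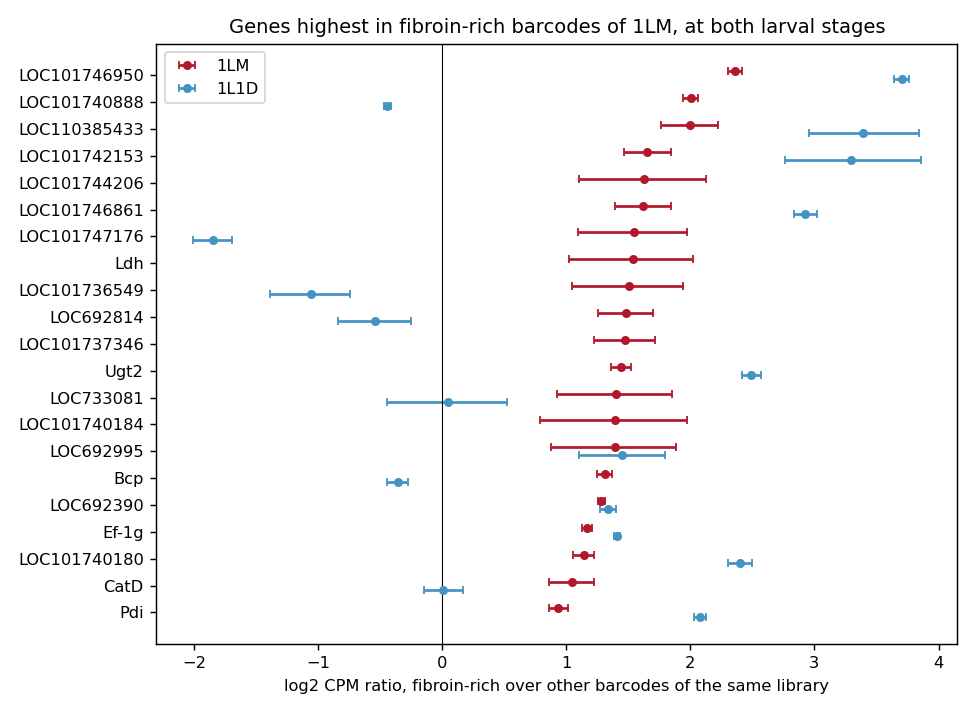
log2 ratio of CPM in fibroin-rich over other barcodes (x axis, with 95% binomial intervals) at 1LM (red) and 1L1D (blue), for the 15 genes with the highest ratio at 1LM and for Bcp, LOC692390, CatD, LOC101740180, Ef-1g and Pdi (rows, by ratio at 1LM). A gene without a blue point was under 100 UMIs at 1L1D. LOC101746950 lies right at both stages, and LOC101747176 and LOC101736549 lie on opposite sides.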

How the data were processed

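The authors counted UMIs per gene and barcode with Cell Ranger 3.1.0, which uses STAR, against the assembly ASM15162v1, and deposited whole UMI counts without normalization. The 3 tables were checked to hold whole numbers. No cell type labels were used. The barcodes and gene lists were chosen with earlier results of these data known. Barcodes were kept with at most 30% mitochondrial UMIs and with UMIs per gene within 2 SD of the library mean. No doublet caller was run. UMIs were summed per group. CPM left out the 6 genes of the rule, because the rule fixes their share, and counts under 3 were replaced by 3 in ratios. Since each stage was 1 library, ratios were given with exact binomial intervals and no p-values. The interval method was tested on simulated data. Named genes were the 15 highest and 15 lowest ratios, the 15 most abundant genes of fibroin-rich barcodes and the lists. Thinning used seed 1. Depth was 16578633 UMIs for 1LM, 32588033 for 1L1D and 12579661 for E8D. Gene biotypes came from the RefSeq table of the assembly ASM3026992v2, whose coordinates were not used, and annotated gene names from the study's supplementary tables. FIBH-2 is a further row of FIBH, and reads of the repetitive heavy chain may be split between the rows. The alternatives were other fibroin, FPC, mitochondrial and UMI limits, other totals, depth-matched others, and a mean over barcodes. Python 3.11.15 was used with numpy 2.4.6, scipy 1.17.1 and matplotlib 3.10.9.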

Additional observations from a re-analysis of the deposited data

Results flagged for a closer look

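A pair of the genes highest in fibroin-rich barcodes at 1LM had the opposite direction at 1L1D, each past 2-fold with an interval that left out 0. LOC101747176, a homogentisate 1,2-dioxygenase, had 45.0 CPM in fibroin-rich and 15.5 CPM in other barcodes of 1LM (log2 1.54), and 85.1 and 307 CPM in those of 1L1D (log2 -1.85). LOC101736549 had 42.8 and 15.1 CPM at 1LM (log2 1.502) and 22.5 and 47.0 CPM at 1L1D (log2 -1.06). With 1 library per stage, the difference between the stages was not tested.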

How the results depend on the processing

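No paired analysis was possible because each stage was 1 library. The number of fibroin-rich barcodes moved to 1599 with a fibroin limit of 3% and to 47 with 10%, and lay between 499 and 642 under the other 6 limits tried. The number of genes called higher was 39 with the 3% limit, 187 with the 10% limit and 259 without ribosomal protein genes in the total (chosen after the data were seen), and genes called lower numbered 618 with the 10% limit. At 10%, 3 counts correspond to 26.5 CPM in 113256 UMIs, so low genes are bounded there. The median of all genes was then 0.28 and that of vesicle coats and cargo receptors -0.050. Of 47 single gene ratios, none changed direction past the call under any alternative, but 15 called ratios lost the call at the 10% limit, 3 at the 3% limit, 1 with 0 UMIs of the FPC genes and 1 without the deepest barcodes. LOC101746950 ranged from 1.97 to 2.62, cathepsin B from 0.73 to 1.54, Bcp from 0.30 to 1.57, Ser2 from -1.78 to -0.88 and Awh from 0.99 to 1.80, the lowest values of cathepsin B and Bcp at the 10% limit. Pdi passed 2-fold with others of matched depth (log2 1.17) and with all deposited barcodes (1.05). The median of heat shock genes was -1.005 without the 5% of barcodes with most UMIs, -0.48 with the 10% limit and -0.90 where UMI shares were averaged over barcodes, and that of cuticular protein genes was -0.92 with the 10% limit, -1.72 with the 3% limit and -1.93 with a minimum of 20 UMIs. The median of ecdysone genes was -0.19 with no limit on the FPC genes. Thinning to 500 UMIs gave 68.0% of fibroin-rich barcodes with a UMI of LOC101746950. Depth limits genes such as Awh, with 53 UMIs.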
